A study of Mus musculus with 74 samples.

Results

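The Zfp429 ChIP comprised 254 of the 53255 peaks in the deposited table. The members were chosen by the name in the peak table, so a region belongs here because the authors called it as a peak of Zfp429, and the deposited enrichment values chose the members. Zfp429 is a mouse KRAB zinc finger protein (KRAB-ZFP), encoded on the minus strand of chr13:67490263-67500703 (ENSMUSG00000078994.1, mm9 build). The protein carried a C-terminal 3XHA tag and was stably overexpressed in F9 EC cells, a mouse embryonal carcinoma line. Chromatin bound to it was recovered with an antibody against HA and sequenced (ChIP-seq). The series assayed many KRAB-ZFPs in this way, each in 1 sample, so no value here has a replicate error. Zfp429 was set beside the 29 other F9 ChIPs with peaks under their label that were called against input and the HA control ChIP. These ChIPs held 12429 peaks, and they shared the cell line, the overexpression of a tagged KRAB-ZFP and the HA antibody. In all, 23 of these 30 ChIPs had a C-terminal and 7 an N-terminal 3XHA tag. Expression came from an integrated vector, and puromycin-resistant clones were pooled, so the peaks describe the overexpressed and not the endogenous protein. The library depths were not analysed here, and a missing peak does not show that the protein was absent. F9 identity could not be checked against marker genes, because the table holds peaks and no expression values.

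KRAB-ZFPs bind DNA through an array of zinc fingers, each of which contacts a few bases, and recruit the co-repressor KAP1 (TRIM28) through the KRAB domain. KAP1 in turn recruits the H3K9 methyltransferase SETDB1, and many KRAB-ZFPs bind retrotransposons. An LTR retrotransposon that is inserted in full carries the same long terminal repeat (LTR) at both ends, in the same orientation, with the viral genes between them. Recombination between the LTRs removes the inside and leaves a solo LTR.

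The 254 windows, each 200 bp around a summit, were grouped by similarity of sequence. The groups were made by joining windows that aligned over at least 80 bp at 70% identity or more. The 3 largest groups held 66, 23 and 20 windows, followed by a group of 8 windows, smaller groups and 123 single windows that resembled no other. The window of highest fold in each of the 5 largest groups is shown, with the best match to the motif described below in capitals where it passed the threshold. The group 1 window lay at chr1:186714482-186714681 with a fold enrichment of 49.53, and its best match scored below the threshold. A group 1 window at chrX:94337292-94337491 had the same fold and is not shown. The group 2 window lay at chr12:113259130-113259329 with a fold of 42.9, and the group 3 window at chr10:78863973-78864172 with a fold of 65.29. The group 4 window, a GT-rich simple repeat, lay at chr15:99211062-99211261 with a fold of 37.78, and the group 5 window at chr10:103871467-103871666 with a fold of 38.27. The sequences are read from the mm9 reference, and those with capitals are turned so that the motif reads forward.
group 1: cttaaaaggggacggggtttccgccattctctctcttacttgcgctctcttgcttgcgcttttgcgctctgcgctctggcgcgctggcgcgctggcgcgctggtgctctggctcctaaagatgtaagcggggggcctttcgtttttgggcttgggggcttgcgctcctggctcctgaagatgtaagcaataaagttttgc
group 2: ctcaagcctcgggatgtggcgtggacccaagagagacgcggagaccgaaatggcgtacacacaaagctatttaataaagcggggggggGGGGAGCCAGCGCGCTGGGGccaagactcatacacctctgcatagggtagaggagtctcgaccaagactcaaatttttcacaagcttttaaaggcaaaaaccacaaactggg
group 3: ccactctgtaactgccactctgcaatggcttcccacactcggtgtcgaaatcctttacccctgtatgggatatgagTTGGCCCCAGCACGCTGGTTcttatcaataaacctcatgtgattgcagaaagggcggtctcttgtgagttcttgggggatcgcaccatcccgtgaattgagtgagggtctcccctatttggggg
group 4: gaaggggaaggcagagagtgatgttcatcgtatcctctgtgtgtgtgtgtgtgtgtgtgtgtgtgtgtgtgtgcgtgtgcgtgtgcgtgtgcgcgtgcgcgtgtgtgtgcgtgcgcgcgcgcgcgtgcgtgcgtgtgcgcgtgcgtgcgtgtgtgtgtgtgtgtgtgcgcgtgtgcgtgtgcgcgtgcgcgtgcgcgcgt
group 5: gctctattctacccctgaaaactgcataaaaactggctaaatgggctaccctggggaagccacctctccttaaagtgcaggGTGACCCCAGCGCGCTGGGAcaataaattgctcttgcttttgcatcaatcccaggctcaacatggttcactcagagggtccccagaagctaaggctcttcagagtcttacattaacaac

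Single windows carried the motif as well. The match in the following pair of windows did not contribute to the motif, since the motif was fitted on other chromosomes. Single window 1 lay between genes at chr6:149254387-149254586 with a fold of 84.62 and 499 tags, and single window 2 lay in a UTR of Tmem90a at chr12:86018716-86018915 with a fold of 68.67 and 265 tags. The capitals again mark the match.
single window 1: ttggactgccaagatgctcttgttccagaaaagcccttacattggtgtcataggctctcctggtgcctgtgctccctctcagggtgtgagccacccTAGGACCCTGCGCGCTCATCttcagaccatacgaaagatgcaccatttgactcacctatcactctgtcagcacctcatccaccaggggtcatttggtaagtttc
single window 2: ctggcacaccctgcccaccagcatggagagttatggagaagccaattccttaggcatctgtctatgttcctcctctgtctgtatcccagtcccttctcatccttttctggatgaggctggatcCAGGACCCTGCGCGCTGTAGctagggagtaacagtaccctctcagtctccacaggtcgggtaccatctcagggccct

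Fold enrichment of the 254 peaks, which is the tag density over the local background as deposited, had a median of 27.7 and a highest value of 91.18. The number of tags per peak lay between 28 and 1959 (median 75.5). Called widths lay between 158 and 2301 bp (median 417 bp). The study kept peaks with p under 1e-10 and an enrichment over 20 in this sample. The members just inside the fold limit were a peak at chr2:172335975-172336174 with a fold of 20.03 and one at chr12:55676180-55676379 with a fold of 20.06. Regions below the limit were not analysed here. The deposited false discovery rate had a median of 0.91% and was 25% at the 3 peaks of highest fold. The rate was also 25% at chr3:157104303-157104502 (fold 42.78). It was 20% at single window 2 and 11.11% at the group 3 window shown, but 0.69% at the peak with a fold of 20.03. Low deposited rates thus did not pick out the strongest peaks.

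The peak of highest fold, 91.18, lay in an intron of Dnm2, which encodes a dynamin GTPase of membrane fission (chr9:21304792-21304991). It was also the widest, with a called width of 2301 bp and 1959 tags. Its window is a tandem repeat, has no 24-mer that is unique in the genome, and holds the motif. The next peak is single window 1, near 2810474O19Rik. A peak in the first part of Inpp5f, a phosphoinositide phosphatase gene, had a fold of 82.17 and lay 464 bp after the transcript start (chr7:135831424-135831623). Single window 2 in Tmem90a and the group 3 window at 65.29 followed. The remaining peaks among the 10 of highest fold lay between genes in 3 cases, at chr4:83054022-83054221 (fold 61.91, 9506 bp before Snapc3), chr10:34619456-34619655 (fold 57.41) and chr6:51222547-51222746 (fold 54.96, 2738 bp from Mir148a). The other two lay in introns of Tom1l2 (fold 56.08) and Pcnxl2 (fold 55.16). Of these 10 peaks, 8 had a median 24-mer copy number of 1. The exceptions were the Dnm2 peak at 10 copies and the Tom1l2 peak at 2 copies.

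Zfp429 was chosen for its pairs of neighbouring peaks, so the values on pairing are a description without a test. Another Zfp429 summit lay within 10 kb of 56 peaks, or 22.05% of the 254. The next ChIP in order was Zkscan17 with 10.3%, followed by Gm13150 with 4.08%. Zkscan17 was called at looser thresholds than Zfp429 (p under 1e-5, enrichment over 10) and had 1107 peaks. The median of the 29 other ChIPs was 0.985%, and 13 of them had no such pair. Zfp429 stayed first without the windows that lack unique sequence, but the gap narrowed. When only windows with at least 1 unique 24-mer were kept in every ChIP, 14 of 196 Zfp429 windows were paired (7.14%), beside 69 of 1039 for Zkscan17 (6.64%).

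**Figure D1:**
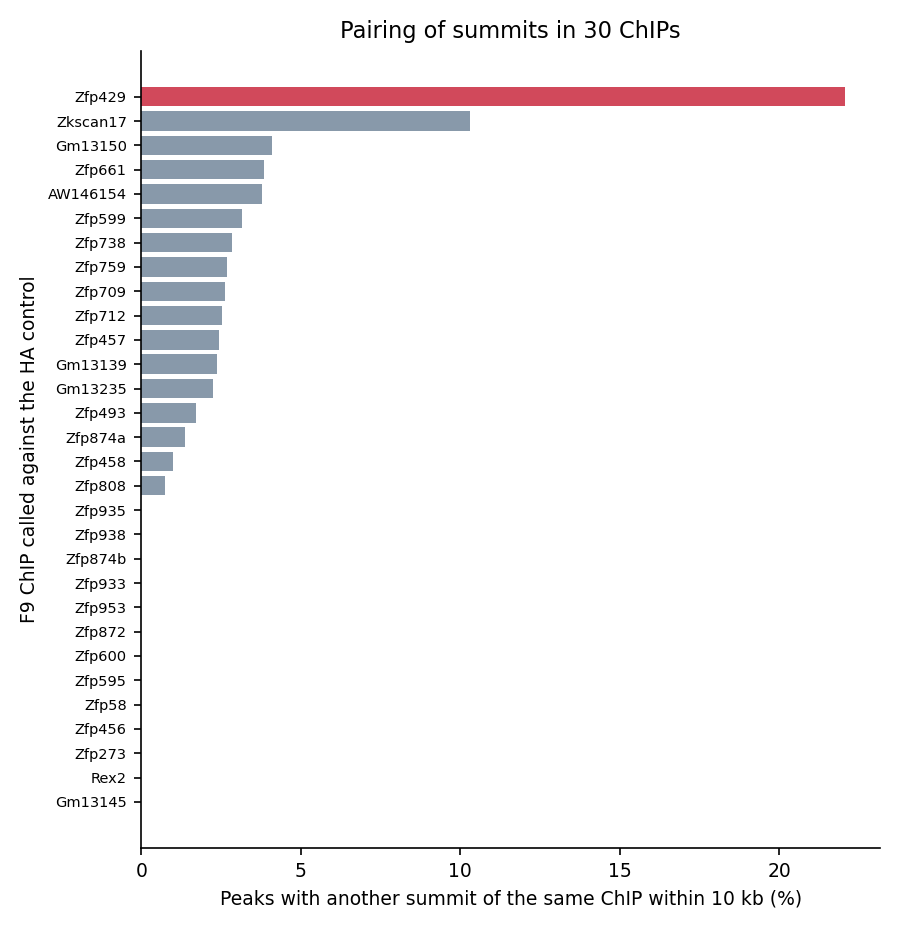
Share of peaks (%, x axis) with another summit of the same ChIP within 10 kb, for the 30 F9 ChIPs called against the HA control (y axis), each 1 sample. Zfp429, in red, stands at 22.05% and the next, Zkscan17, at 10.3%.

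Of the 56 peaks, 54 lay in a copy of the same sequence as their neighbour, in the same orientation, and formed 27 pairs. The search asked for a further copy of the sequence at the summit, on the same strand and within 12 kb. The copy had to align over at least 100 bp at 80% identity or more, and copies shifted by less than 1 kb were not counted. The remaining 2 peaks lay close together in a tandem repeat. Group 1 supplied 21 pairs, group 2 supplied 5 and group 3 supplied 1. In all 27 pairs both peaks belonged to the same group. The aligned copies were 470 to 513 bp long in group 1, with a median of 478 bp, and 448 bp long at the median in group 2, where 1 alignment was as short as 155 bp. The copies of the group 3 pair aligned over 480 bp. The copies were found by alignment alone, and no repeat annotation was used. LTRs typically begin with TG and end with CA. Of the 76 windows with a further copy described below, the aligned stretch began with TG in 43, ended with CA in 22 and did both in 6, and the ends of an alignment need not be the ends of a repeat.

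The summits of a pair lay 3763 to 6994 bp apart, with a median of 4003 bp. In 17 pairs the distance was between 3500 and 4100 bp. The 5 group 2 pairs kept to a narrow range of 3763 to 4042 bp, whereas the group 1 pairs ranged from 3816 to 6994 bp. The copies were 94.74% identical or more in group 1, with a median of 99.58%, and 1 pair was identical throughout. The median identity in group 2 was 97.16%. The group 3 pair had the lowest identity, 88.54%.

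The 5 pairs with the highest lower fold were 1 of group 3 and 4 of group 1. The group 3 pair lay on chr17 at 34962513-34962712 and 34968055-34968254, with folds of 51.78 and 52.78. Its first peak lay in an exon of Stk19, 102 bp after a transcript start. The next pair lay in Gab2, a signalling adaptor gene (chr7:104422596-104422795 and chr7:104426456-104426655), and had folds of 48.4 and 41.65. The following pair lay on chr2 between 99385444 and 99392595 with folds of 46.15 and 41.65. A pair on chr8 between 126644370 and 126649143 had folds of 48.4 and 40.52. The last lay on chr15 between 103437333 and 103441437 with folds of 39.4 and 45.03. In 3 of these 5 pairs the copy at the lower coordinate had the higher fold.

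Over all 27 pairs the higher fold was a median of 1.2 times the lower, and at most 2.15 times. The ratio was at most 1.5 in 23 pairs. The copy at the lower coordinate had the higher fold in 16 pairs and the other copy in 10, with 1 tie. Of the pairs, 19 lay between genes at their first peak.

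**Figure D2:**
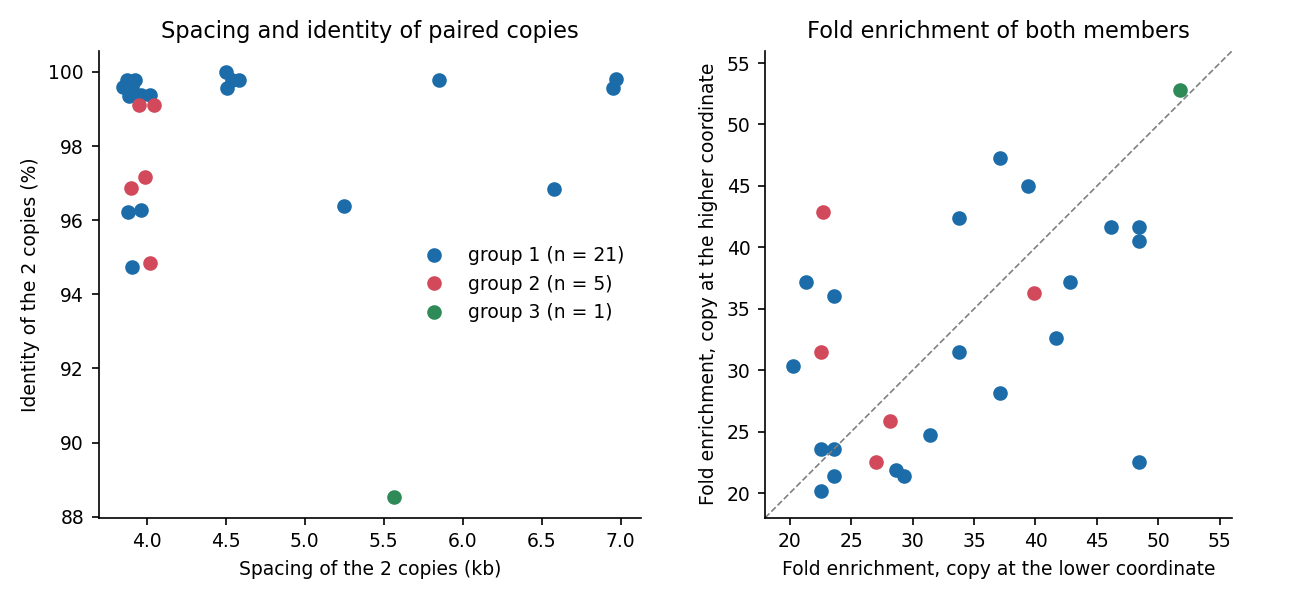
The 27 pairs of Zfp429 peaks in same-strand copies, coloured by sequence group. Left, spacing of the copies (kb) against their identity (%): most points lie near 4 kb and above 94%. Right, deposited fold enrichment of both members on linear axes, with the line of equal fold dashed; the widest gap is 2.15 times.

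Reads that match several positions equally well were placed at 1 of them at random, so peaks in near-identical copies are not independent. In 9 group 1 pairs the 200 bp of one window occurred letter for letter beside the other. At least 1 window had no unique 24-mer in 21 of the 27 pairs, and in 13 pairs neither had one. Both windows held a unique 24-mer in 6 pairs, 1 of group 1, 4 of group 2 and the group 3 pair. The reads were longer than 24 bases, so a window without a unique 24-mer can still receive reads with a single best position. How far the placement of reads set the other pairs was not tested.

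Not all copies that stood near another copy were paired with a peak. Searched from each peak in turn, a further copy was found near 76 of the 254 peaks (29.9%), and it was called near 53 of them. The 53 fall 1 short of the 54 paired peaks because 1 group 2 pair was found from only 1 of its members. In group 1, 52 of 66 peaks had one and 42 of the 52 were called (80.8%). In group 2 the counts were 13 of 23, with 9 called (69.2%), and in group 3 they were 4 of 20, with 2 called. Of the 123 single windows 4 had a further copy and none of these was called as a separate peak. At the Dnm2 peak and at chr3:157104303-157104502 the copy lay only 1019 and 1003 bp away. The called widths there were 2301 and 1723 bp, and whether the copy lay inside the same called peak was not tested. The search from the other 14 group 1, 10 group 2 and 16 group 3 peaks found no further copy within 12 kb, and the 10 include that member. The motif described below was held by 8 of the 23 copies that were not called and by 12 of the 53 that were. These counts mix the groups and do not compare called with uncalled copies. Group 1, in which 1 of 66 windows held the motif, supplied 42 of the 53. In groups 2 and 3 every called and every uncalled copy held it.

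**Figure D3:**
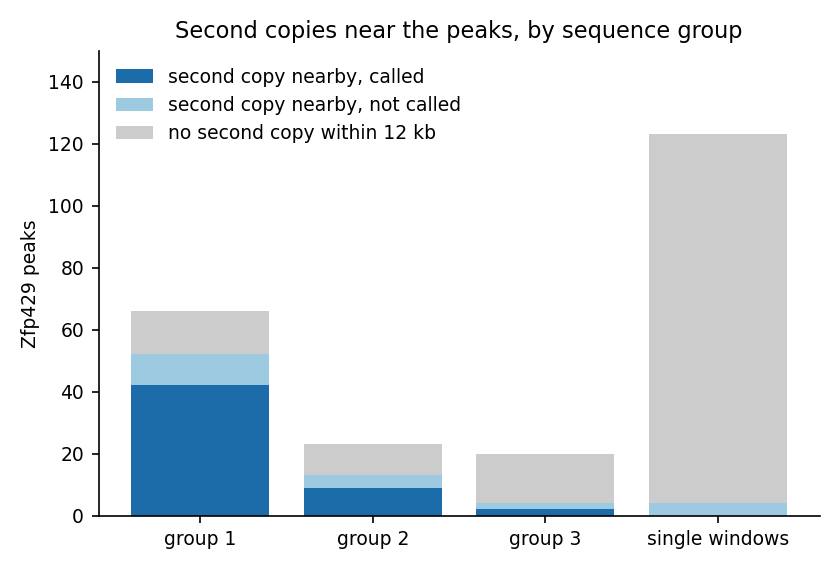
Number of Zfp429 peaks (y axis) in groups 1 to 3 and among single windows, split by whether the sequence at the summit has a further same-strand copy within 12 kb and whether that copy was called as a Zfp429 peak. In group 1, 42 of 66 peaks have a called copy; among the 123 single windows none has.

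The same search in the 29 other ChIPs found a called further copy for at most 4.08% of the peaks, in Gm13150 (4 of 98), against 20.9% for Zfp429. Gm13150 had more peaks with a further copy nearby, called or not, at 40.8% against 29.9%. It also had 42.9% multi-copy peaks.

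The motif was fitted on the 47 single windows of odd-numbered autosomes that were not simple repeats, and it was searched for in all other windows. The fit gave the following letters, with N where no base held at least 50% of the sites.
Zfp429 motif, odd-numbered autosomes: GGACCCNGCGNGCTGG
A separate fit on 52 single windows of the other chromosomes started from another seed and gave nearly the same letters, and the matrices correlated at r = 0.921 over 18 columns, which are not independent replicates.
Zfp429 motif, other chromosomes: GGACCCNGNGCGCTGG
The right-hand part is close to a palindrome, so that a match to it on one strand is nearly a match on the other. Scans used both strands. A window was said to hold the motif when its best log2 score reached 11.4, which 1% of the 12791934 windows of 200 bp that tile the genome reach.

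Of all 254 Zfp429 windows 102 held the motif (40.2%), including 30 of the 47 windows used in the fit (63.8%). Among the 64 single windows on the other chromosomes, which the fit did not use, 22 held it (34.4%). Of the 508 windows 1 kb to either side of the peaks 9 held it (1.77%). The median share of the 29 other ChIPs was 1.54%, and Zfp456 had the highest share, 12.5%. Windows were not matched for GC content, whose mean exceeded that of Zfp429 (54.68%) only in Zfp456 (55.06%). At a score that 0.1% of genome windows reach, the share was 29.9% for Zfp429, 20.3% in the single windows not used in the fit, 0.591% in the flanks and at most 2.78% in the other ChIPs. A match is a description of the sequence and not a bound site.

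The motif lay near the summit. Over the 102 windows the median offset of its centre was -1.5 bp, and 64 matches (62.7%) lay within 25 bp of the summit. In group 3, 17 of 19 matches lay within 25 bp, and in group 2, 10 of 20 did. Among the single windows not used in the fit, 12 of 22 did. Matches were sought only inside the 200 bp windows, and the share near the summit by position alone was not computed. Windows of a group are similar in sequence, so their matches are not independent.

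The groups differed in how they held the motif. In group 2, 20 of 23 windows held it (87.0%), and in group 3, 19 of 20. In group 1 only 1 of 66 did, and the median score of its windows was 10.5, just below the threshold. Mismatches to the 14 fixed letters of the motif were also counted. On the reverse strand the count left out some of these letters, so the numbers are lower limits. By this count, 38 of the 66 group 1 windows had 3 mismatches and 21 had 4. In the flanks 7.89% of windows had 3 and 27.6% had 4 by the same count, and none had 1. Of the 23 group 2 windows 19 had a count of 1, as had 15 of the 20 group 3 windows. No window of any group matched all 14 letters.

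**Figure D4:**
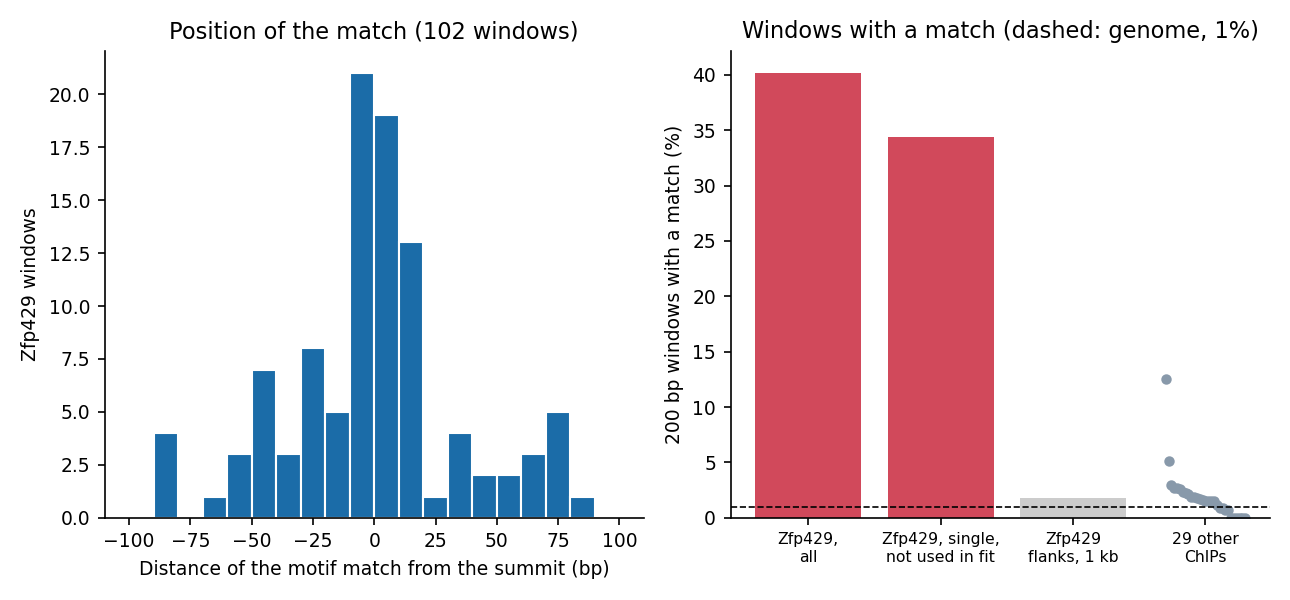
Left, number of Zfp429 windows (y axis) by distance of the best motif match from the summit in bp (x axis), over the 102 windows with a match, in bins of 10 bp. Right, share of 200 bp windows with a match (%): bars for Zfp429 (40.2% of all, 34.4% of single windows not used in the fit) and its flanks (1.77%), 1 point for each of the 29 other ChIPs, and a dashed line at the 1% of genome windows.

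Within a group, the copies of the repeat that were called can be set beside those that were not. Copies were found by aligning the windows of a group to the genome over at least 150 bp at 80% identity or more. The called copies are the members and chose themselves, so the counts are a description. Group 3 had 211 copies, of which 20 were called (9.48%). Among the 19 copies with a best match of 18 or more 14 were called (73.7%). Among the 20 copies scoring from 14.8 to 18 there were 5 called, and among the 145 copies without the motif there were none. The median score was 18.2 in called and 9.92 in uncalled copies. Every called group 3 window held unique sequence, with 60 to 158 unique 24-mers and a median of 105.5.

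Group 2 had 111 copies, of which 23 were called (20.7%). A copy was scored over its whole aligned stretch and 20 bp to either side, which can reach beyond the 200 bp window, so more copies than windows held the motif. All 23 were among the 102 copies that held it. Of these, 22 were among the 53 copies scoring from 14.8 to 18 (41.5%), 1 was among the 6 copies at 18 or more, and none was among the 43 copies from 11.4 to 14.8. Group 1 had 3880 copies, of which 66 were called (1.70%). None of the 113 copies scoring under 0 and none of the 1068 copies from 0 to 5 was called. At 5 to 11.4 the share was 2.47%, and at 11.4 to 14.8 it was 2.19%, and the median score was 11.2 in called and 6.69 in uncalled copies.

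**Figure D5:**
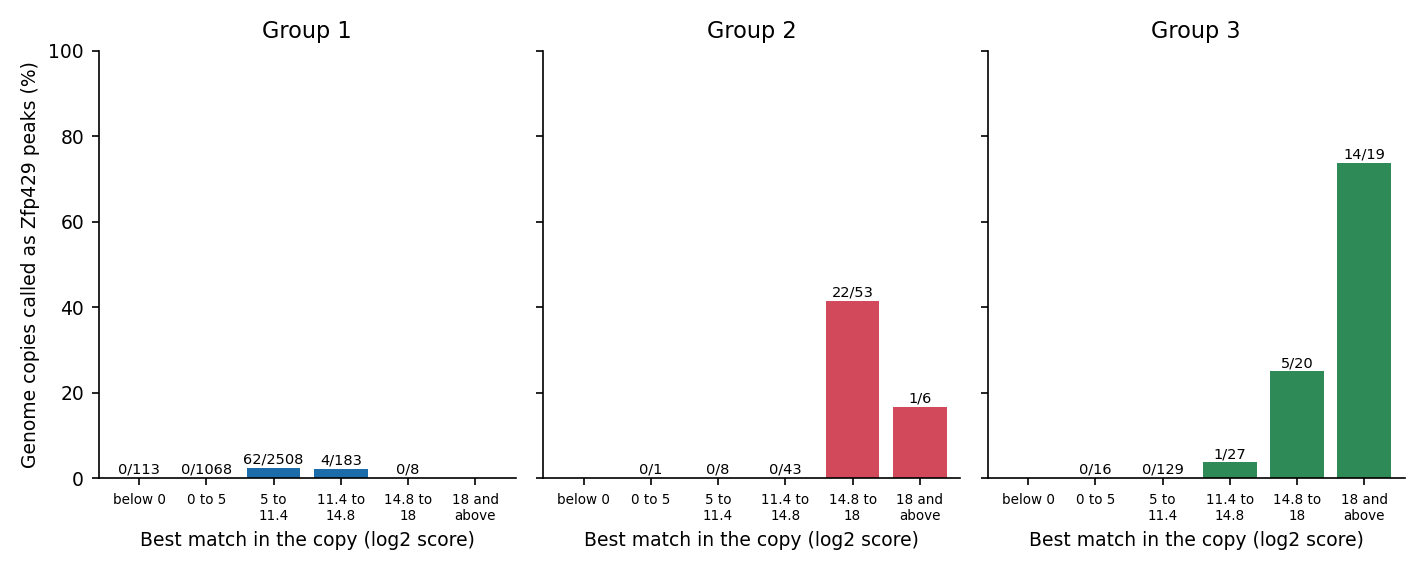
Share of the genome copies of groups 1 to 3 that were called as Zfp429 peaks (%, y axis), by the log2 score of the best motif match in the copy (x axis), with called and total copies above each bar. In group 3 the share is 73.7% at scores of 18 or more and 0% without the motif; in group 1 it stays under 3% in every bin.

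The letters at the best match were compared as well, and the match need not lie at the same place of the repeat in called and uncalled copies. The most common 20 letters among called and among uncalled copies of each group are shown, with the letters that line up with the motif in capitals throughout.
group 1, called: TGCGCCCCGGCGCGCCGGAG
group 1, not called: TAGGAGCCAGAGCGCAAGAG
group 2, called: GGGGAGCCAGCGCGCTGGGG
group 2, not called: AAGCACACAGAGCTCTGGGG
group 3, called: TCGGCCCCAGCGTGCTGGTT
group 3, not called: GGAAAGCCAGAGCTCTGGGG
The group 1 site of called copies occurred 31 times in the genome, and all 31 lay within 100 bp of a Zfp429 summit. The most common site of uncalled group 1 copies occurred 851 times in the genome, and none lay within 100 bp of a summit. A further group 1 site, best in 258 copies of which 18 were called, occurred 298 times in the genome, and 46 of these lay within 100 bp of a summit.
group 1, called, next most common: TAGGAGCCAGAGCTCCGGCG
The group 2 site of called copies was the best match in 17 copies, of which 10 were called and 7 were not. It occurred 17 times in the genome, 8 of them within 100 bp of a summit. The next most common site of called group 2 copies was best in 9 called and 11 uncalled copies. It occurred 37 times in the genome, 16 of them within 100 bp of a summit, so these sites did not separate called from uncalled copies. The group 3 site was the best match in 6 copies, of which 5 were called. The leading site of uncalled copies occurred 146 times in the genome for group 2 and 807 times for group 3, with no Zfp429 summit within 100 bp of any. Because 43 of the 66 group 1 windows had no unique 24-mer, the calls at its identical copies are not independent of each other.

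The groups also differed in copy number, which was counted as the median number of times that the 24-mers of a window occur in the genome. The median over windows was 106.5 in group 1, 28 in group 2 and 1 in group 3 and in the single windows. Over all Zfp429 windows, 96 (37.8%) were multi-copy, with a median copy number of at least 10, and 134 had a median copy number of 1. Of the F9 ChIPs called against the HA control, 3 had a higher multi-copy share, namely Rex2 with 77.61%, Zfp808 with 49.45% and Gm13150 with 42.86%, and 26 had a lower share. The mean of the other ChIPs was 11.8%. The difference of 26.0 percentage points was not significant in a two-sided exact permutation test over the 30 samples (p = 0.133, adjusted p = 0.333 over the 5 measures tested). With 1 sample against 29 the smallest p this test can give is 0.0333. Zfp429 was chosen for its paired peaks, and 42 of the 56 paired peaks belong to group 1, the group of highest copy number. The test does not allow for this choice, so its p-value is descriptive.

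Zfp429 windows were rich in G and C. Their mean GC content was 54.68%, against a mean of 46.3% over the other ChIPs, and only Zfp456 was higher, at 55.06%. Zfp661 followed at 53.42%. The difference of 8.39 percentage points had p = 0.1 in the exact permutation test (adjusted p = 0.333). The group 1 windows, with a mean of 57.6% and a median of 16 CpG dinucleotides in 200 bp, were richer than the single windows, with a mean of 54.3% and a median of 5. The called width, with a median of 417 bp for Zfp429, lay between Zfp661 (432 bp) and Zfp712 (400 bp) and its difference from the mean of 327.3 bp was not significant in the exact permutation test (p = 0.367, adjusted p = 0.611).

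Most Zfp429 summits lay outside genes. Of the 254 summits 153 (60.2%) were intergenic, 81 were intronic, 10 lay in coding exons, 7 in UTRs and 3 in other exons. The intergenic share stood between Zfp493 (60.68%) and Zfp600, and its difference of 4.92 percentage points from the mean of the other ChIPs was not significant (exact permutation p = 0.6, adjusted p = 0.75). Groups 1, 2 and 3 lay between genes in 50 of 66, 19 of 23 and 16 of 20 windows, whereas 56 of 123 single windows did. Within 1 kb of a transcript start lay 30 summits (11.8%), between Zfp599 at 13.06% and Gm13150 at 11.22%, and the mean of the other ChIPs was 10.2% (exact permutation p = 0.867, adjusted p = 0.867). In total 36 peaks lay within 1 kb of a protein-coding start, in a coding exon or in a UTR.

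After Inpp5f and Tmem90a, the genic peaks of highest fold were the Stk19 peak and a peak 77 bp before Armcx1 on the X chromosome (chrX:131252325-131252524, fold 51.07). A peak in Aim1l lay in a coding exon (chr4:133637663-133637862, fold 48.4). Arhgef37 had a peak 166 bp after its start with a fold of 41.74. The Gab2 peak named above also lay 731 bp before Gm2783. A peak in Zfp428, itself a zinc finger gene, lay 445 bp after the start (chr7:25292494-25292693, fold 37.95, 257 tags). Agtrap, which encodes a protein associated with the angiotensin II receptor, had a peak 77 bp after its start with a fold of 36.56. A peak 31 bp before Atf7ip, whose product is a partner of SETDB1, had a fold of 32.63 (chr6:136467241-136467440, 168 tags).

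Weaker genic peaks lay at Gm6792 (fold 29.91) and 554 bp after the start of Haus2 (fold 29.27), a gene of the augmin complex of the spindle. Coding exon peaks were found in Cnn2, a calponin gene (fold 28.2), in Tsga10 (fold 28.14), and in Polrmt, the gene of the mitochondrial RNA polymerase (fold 28.14). Of these 15 genic windows 14 had a median 24-mer copy number of 1, and the Gab2 window had 106.

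Lists of genes were searched for a Zfp429 summit in the gene or within 10 kb of it. Of 20 genes for KAP1 and heterochromatin silencing 1 had one, which was Atf7ip. Of the 20 pluripotency genes and the 20 imprinted genes found in the annotation none had one. Of 371 genes with the Zfp prefix 4 had one (1.08%). These were Zfp787 (fold 20.26), Zfp428, Zfp768 (fold 27.02) and Zfp935, with a summit near it of fold 43.9. Over all 22380 protein-coding genes the share was 0.706%, with 158 genes. The share in each list is set beside this background without a test.

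Zfp429 loci were compared with the peaks of the other KRAB-ZFPs. Windows that overlapped by at least 25% were counted as shared. Of the 254 loci 17 (6.69%) were shared with at least 1 other F9 ChIP called against the HA control. Any other ChIP of the series shared 32 (12.6%), and 222 were shared with none. The same shares were not computed for the other ChIPs, so whether these are low or high for the series is not known. The most loci were shared with Zfp759, which had 9 in common, or 3.54% of the Zfp429 and 1.10% of the Zfp759 peaks. Gm13152 and Gm13251 followed with 7 each, which is 0.135% and 0.212% of their own peaks. Gm13145 shared 5 and Gm13235 shared 4, which was matched by Zfp872.

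The loci shared with the most ChIPs were few. The locus in D6Wsu116e (chr6:116192219-116192418, fold 34.7) and the one in Slit1, an axon guidance gene (chr19:41707699-41707898, fold 28.04), were each peaks of 8 other KRAB-ZFPs. A locus at chr3:95230512-95230711 (fold 24.23) was shared with 7. The locus in Iqgap3 (chr3:87919909-87920108, fold 26.92) and one at chr5:133739179-133739378 (fold 22.51) were shared with 6 each. Zfp759 was among the sharing ChIPs at all 5 of these loci.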

How the data were processed

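Binding of Zfp429 in F9 EC cells was measured by ChIP-seq in 1 sample and compared with 29 other F9 ChIPs. Per the labels, the authors mapped reads to mm9 with Bowtie, trimming the first bases and keeping the best position; per the study, a read with several equally good positions was placed at random among them. Peaks were called per sample with MACS 1.4.2, once against input and once against the HA control, and kept at p under 1e-10 and an enrichment over 20 for Zfp429. Each peak was set to 200 bp around its summit. The authors deposited the tags per peak as a raw count, the MACS score (10 times the negative log10 of p), the fold enrichment as a ratio, and the false discovery rate as a percent. Window positions, called widths and summit offsets in the deposited table are in base pairs. These values are the authors' own and were used to describe, rank and filter. The ChIPs had differing thresholds, and 19 of the 30 had those of Zfp429. The depth of the libraries is unknown here, since the tags in peaks are not a library total, so no interval for counts is given and a missing peak is not a measured absence.

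Of the 68 names in the table, 1 matched no label, and its 244 peaks were not used. Zfp94, labelled as an F9 ChIP with the HA control, had no peaks under its name and was left out. The reference was NCBIM37 (mm9) with gencode vM1, and coordinates count from 1. Windows were grouped with BLAST 2.17.0, and copies of 24-mers were counted on both strands over the whole assembly. Named peaks were the 10 of highest fold, 5 pairs with the highest lower fold, up to 15 genic peaks, the 5 loci shared most, and for groups the window of highest fold outside chromosome 18. The members, lists and rules were chosen with earlier results of these data known. A k-mer of 10 letters chosen on odd-numbered autosomes was planned; the fitted matrix (width 20, zero or 1 site a window, 10 seeds) and the search for same-strand copies were added after seeing the data. Single windows needed 150 distinct 6-mers to enter the fit. Samples were compared by two-sided exact permutation tests over the 30 ChIPs, with Benjamini-Hochberg adjustment over 5 measures. The motif fit, grouping, copy counts, copy search and permutation test were tested on simulated data. Python 3.11.15 and numba 0.67.0 were used.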

Additional observations from a re-analysis of the deposited data

How the results depend on the processing

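The number of peaks was 254 at the thresholds of the study, 48 at a fold over 40 and 242 on autosomes alone. It was 146 at a deposited false discovery rate of at most 1%. That cut is not a stricter set of strong peaks, since it removed the 10 peaks of highest fold. The share of peaks with another summit within 10 kb (22.05%) was 17.3% at 5 kb and 16.7% among the 48 peaks with a fold over 40, and was unchanged at 20 kb. It was 7.14% among the 196 windows with a unique 24-mer, an alternative added after seeing the data. The share near a transcript start exceeded the mean of the other ChIPs at 1 kb but not at 5 kb, where it was 26.0% (exact permutation p = 1.0); neither difference passed. None of the other tested differences passed at p under 0.05 or changed direction among the alternatives run, but with the same thresholds (n = 19) or a fold over 40 (n = 20) the smallest exact p possible is 0.0526 or 0.05, so those sets could not pass. With a C-3XHA tag (n = 23) it is 0.0435. The planned k-mer of 10 letters was a simple repeat, ACACACACAC, found in 4.65% of the 129 windows counted and in 3.52% of genome windows, with GTGTGTGTGT on the other strand. For 8 letters the choice was CTGGGTCC (GGACCCAG on the other strand), which is not a simple repeat. It was found in 2.33% of windows and 1.04% of genome windows. The choices for 12 letters and on even-numbered autosomes were CA repeats. Their shares were 3.88% and 9.6%, beside 2.95% and 3.67% of genome windows. The fitted matrix, added after seeing the data, gave 29.5% of the 129 windows at the 1% and 21.7% at the 0.1% genome threshold. Grouping at 100 bp and 80% identity kept the 3 largest group sizes of 66, 23 and 20. The fourth largest group then held 3 windows instead of 8, and single windows numbered 133 instead of 123. No paired analysis was possible because each protein has 1 sample. With 1 sample against 29, no difference could reach an exact p below 0.0333.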
